A study of Mus musculus with 6 samples.

Results

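The platelet-derived growth factor (PDGF) family and a pair of transcription factors of the retinal astrocyte lineage were followed in OIR-CIH and OIR-Norm retinas at PN18. The genes were taken by name; the list was drawn up with earlier results of these data known. They are the 4 ligand genes Pdgfa, Pdgfb, Pdgfc and Pdgfd, the receptor genes Pdgfra and Pdgfrb, and Pax2 and Nr2e1. All 8 were found among the 32285 genes of the count table, and all 8 passed the minimum of 10 reads over all libraries that left 20021 genes for testing.

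In the developing retina, ganglion cell axons secrete PDGF-A, which acts on PDGF receptor alpha of astrocytes that spread from the optic nerve head over the inner surface. The astrocyte network then serves as a template for growing vessels. Endothelial cells secrete PDGF-B, which holds pericytes to the vessel wall through PDGF receptor beta. PDGF-C and PDGF-D are secreted with a domain that proteases remove before the factors can bind a receptor. Pax2 marks astrocyte precursors, and Nr2e1, also known as Tlx, is a nuclear receptor of retinal progenitors and glia that is needed for a regular astrocyte network.

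RNA was sequenced from wild-type C57BL/6J retinas in bulk, with 3 libraries of OIR-CIH and 3 of OIR-Norm. Every pup, controls included, was kept with its mother in 75% O2 from PN8 to PN13, a treatment known as oxygen-induced retinopathy (OIR) that removes the central retinal capillaries, and all retinas were taken at PN18. From PN13 on, OIR-CIH pups underwent chronic intermittent hypoxia (CIH) for 10 h a day, with O2 cycling between room air and 5%, and OIR-Norm pups received the same gas flow at a constant O2 level. Retinas never exposed to hyperoxia were not analysed here, so that each value describes CIH on top of OIR.

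Total counts lay between 26289905 and 38010151 per library and overlapped between groups. Levels are given as CPM, the reads of a gene per 1000000 reads of its library after scaling by the trimmed mean of M-values (TMM), so that libraries of unequal depth can be compared. Xist and the Y-linked gene Ddx3y were both read in every library, at 298 to 1650 and 21.2 to 65.0 CPM, which RNA of a single animal would not give. The labels and the study's methods give 3 eyes per group, and this does not settle how each library came to hold RNA of both sexes. The number of animals in each library is therefore not known, and n counts libraries. Rod photoreceptor markers such as Nr2e3 and Nrl were abundant, with a summed level of 8 markers between 48300 and 64100 CPM, as retinal tissue would give. One library stood apart. In OIR-Norm replicate 2 the 7 lens markers found of the 8 listed summed to 389 CPM, against 18.3 to 52.7 CPM in the other 5 libraries, and values that move by over 1.5 times without this library are given without it too, for the 8 genes and for the astrocyte, fibroblast, vessel and protease genes beside them.

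Over all genes tested, edgeR's quasi-likelihood test called 63 genes at an adjusted p (Benjamini-Hochberg) under 0.05 with an absolute log2 fold change over 0.5, or 0.315% of genes. None of the 8 PDGF and astrocyte genes was among them, and DESeq2, limma-voom and limma on log2(CPM + 0.5) also called 0 of 8. Pdgfra and Pax2 had an unadjusted edgeR p under 0.05, both lower in OIR-CIH. Of all genes, 13.2% had an unadjusted p under 0.05, and 7.01% had one with a lower level in OIR-CIH. DESeq2 gave 1 such member and both limma tests gave 2. For Pdgfra and Pax2 the OIR-CIH libraries lay entirely below the OIR-Norm libraries, which 9.26% of all genes tested also showed. Separation in either direction was found for 18.4% of genes and for 2 of the 8 members. For 1 gene in 3 libraries against 3, the smallest p of an exact two-sided permutation test is 0.1.

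**Figure D1:**
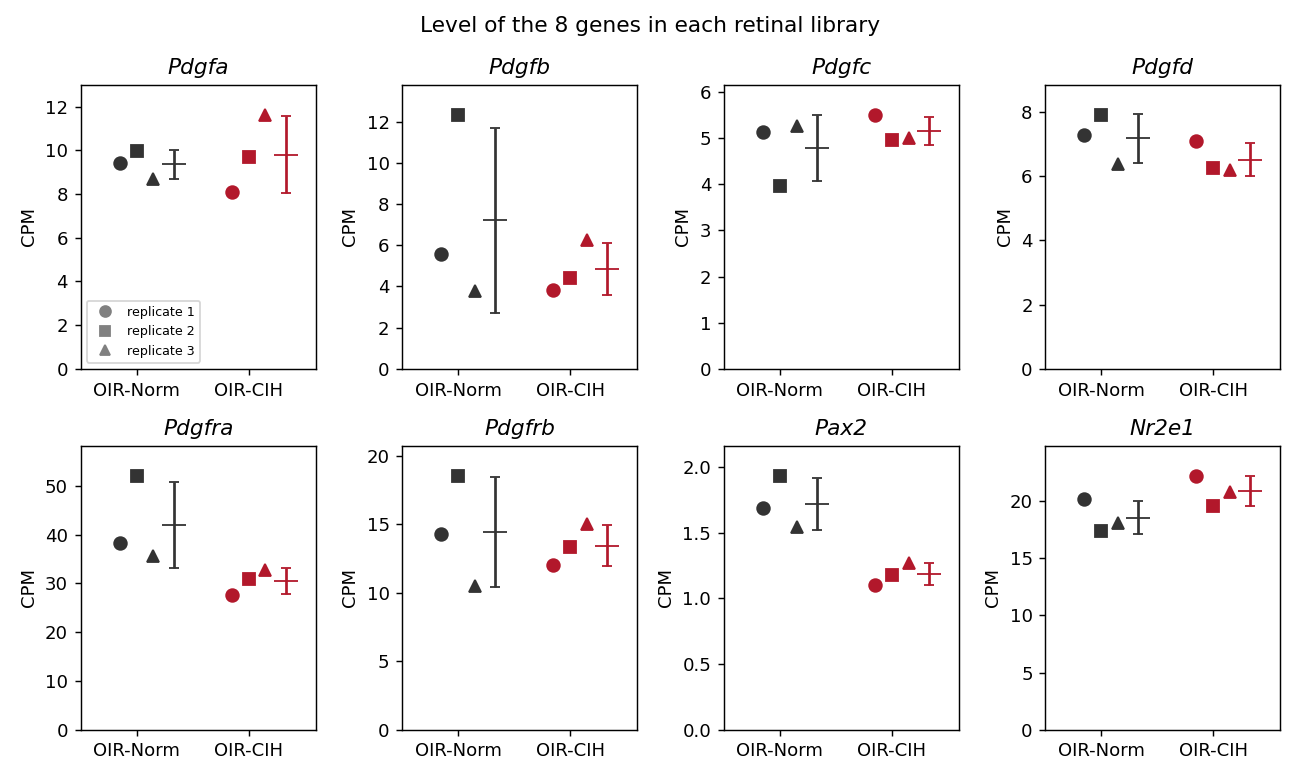
Level of each of the 8 genes in CPM (vertical axis, starting at 0) in the 3 OIR-Norm libraries (black) and the 3 OIR-CIH libraries (red). Symbols mark the replicate number, and the bar to the right of the points is the mean with its SD. The groups are separate only for Pdgfra and Pax2, and the black square of OIR-Norm replicate 2 is the highest point for Pdgfb, Pdgfd, Pdgfra, Pdgfrb and Pax2.

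The upstream sequences of Pdgfra and Pax2 are shown because the groups of these members did not overlap. The windows hold the 250 bases before a RefSeq transcription start (GRCm38.p6). Capitals mark ACGTG or GCGTG on either strand, the core letters bound by hypoxia-inducible factors, of which ACGTG is also part of the E-box CACGTG.
Pdgfra, chr5:75152001-75152250, plus strand: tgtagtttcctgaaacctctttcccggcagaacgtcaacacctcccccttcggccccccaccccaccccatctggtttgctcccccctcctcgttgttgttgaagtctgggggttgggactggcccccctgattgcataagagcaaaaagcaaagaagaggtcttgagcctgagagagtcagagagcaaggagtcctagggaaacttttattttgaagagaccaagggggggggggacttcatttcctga
Pax2, chr19:44755502-44755751, plus strand: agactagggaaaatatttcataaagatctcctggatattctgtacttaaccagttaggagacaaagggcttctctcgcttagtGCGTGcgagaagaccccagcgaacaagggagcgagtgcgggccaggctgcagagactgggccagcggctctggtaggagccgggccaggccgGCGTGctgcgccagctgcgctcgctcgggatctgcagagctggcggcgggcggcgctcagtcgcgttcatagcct
Of the 3 Pax2 windows at hand, the one whose start is nearest to that of the GENCODE gene is shown. The Pdgfra window held no match, which says only that these letters are not in it. The Pax2 window held 2 matches, which began 167 and 75 bases before the start. RefSeq windows of 6 of the 8 members were used, 9 windows in all. None was at hand for Pdgfb, and windows of the chromosome that holds Pdgfrb were left out. Of the 9 windows 4 held a match, all 3 Pax2 windows among them. Among all 32817 windows of the table, 38.6% did, and a match is a description of letters and not a bound site.

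Among the ligands, Pdgfa had the highest level per length, and none of the 4 was called. Pdgfa (ENSMUSG00000025856, chr5:138976014-138997370, minus strand, GRCm38) encodes PDGF-A, the astrocyte mitogen. It was read at 8.08, 9.71 and 11.6 CPM in OIR-CIH replicates 1 to 3 and at 9.44, 9.96 and 8.67 CPM in OIR-Norm replicates 1 to 3. The OIR-Norm values lay within the range of the OIR-CIH values. Means were 9.80 ± 1.77 CPM (SD, n = 3) in OIR-CIH and 9.36 ± 0.65 CPM (SD, n = 3) in OIR-Norm. The log2 fold change of OIR-CIH over OIR-Norm was 0.07 (standard error 0.15, 95% interval -0.24 to 0.39, adjusted p = 0.869 by edgeR), and the exact permutation p was 0.8. Without OIR-CIH replicate 3 the log2 fold change of Pdgfa turned to -0.07, and without OIR-Norm replicate 2 it was 0.12.

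Pdgfb (ENSMUSG00000000489, chr15:79995874-80014977, minus strand) encodes PDGF-B, the endothelial signal to pericytes. Its levels were 3.85, 4.40 and 6.25 CPM in OIR-CIH and 5.58, 12.3 and 3.77 CPM in OIR-Norm. A single library, OIR-Norm replicate 2, lay far above the other 5, while the lowest value also came from OIR-Norm. The log2 fold change was -0.56 (standard error 0.34, 95% interval -1.30 to 0.17, adjusted p = 0.509 by edgeR), the widest interval among the 8 genes. Without OIR-Norm replicate 2 it was 0.06 (adjusted p = 0.966 by edgeR). Of 12 endothelial markers, 10 were also highest in that library, among them Cdh5, the endothelial cadherin, at 20 CPM there and 4.96 to 10.6 CPM in the other 5. The log2 fold change of Cdh5 was -0.64, and it was -0.02 without OIR-Norm replicate 2. The part of vessel content in the Pdgfb value was not tested.

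Pdgfc and Pdgfd, the ligands that need a protease to become active, overlapped between groups. Pdgfc (ENSMUSG00000028019, chr3:81036416-81214040, plus strand) was read at 5.49, 4.96 and 5.00 CPM in OIR-CIH and at 5.13, 3.96 and 5.25 CPM in OIR-Norm. Over OIR-Norm it had a log2 fold change of 0.10 (standard error 0.16, 95% interval -0.24 to 0.44, adjusted p = 0.817 by edgeR), and it was -0.01 without OIR-Norm replicate 2. That library held the lowest value, and the other 5 lay between 4.96 and 5.49 CPM. Pdgfd (ENSMUSG00000032006, chr9:6168584-6378850, plus strand) was read at 7.10, 6.24 and 6.19 CPM in OIR-CIH and at 7.27, 7.89 and 6.38 CPM in OIR-Norm, and its groups overlapped. For Pdgfd the log2 fold change came to -0.14 (standard error 0.14, 95% interval -0.45 to 0.16, adjusted p = 0.709 by edgeR), and to -0.07 without OIR-Norm replicate 2. The exact permutation p was 0.7 for Pdgfb, 0.6 for Pdgfc and 0.2 for Pdgfd.

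Of the receptor genes, Pdgfra was lower in every OIR-CIH library than in every OIR-Norm library without passing the thresholds, and Pdgfrb overlapped between groups. Pdgfra (ENSMUSG00000029231, chr5:75152292-75198215, plus strand) encodes the receptor through which PDGF-A acts on astrocytes. It was read at 27.6, 31.0 and 32.8 CPM in OIR-CIH and at 38.3, 52.0 and 35.7 CPM in OIR-Norm, from 703 to 1482 reads per library. The mean was 30.5 ± 2.66 CPM (SD, n = 3) in OIR-CIH and 42.0 ± 8.73 CPM (SD, n = 3) in OIR-Norm, a fitted ratio of 0.727. The highest OIR-CIH library and the lowest OIR-Norm library were next to each other, and OIR-Norm replicate 2 lay farthest from its group.

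The log2 fold change of Pdgfra was -0.46 (standard error 0.13, 95% interval -0.74 to -0.18), with p = 0.00333 by edgeR before and p = 0.196 after adjustment over all genes, and the exact permutation p was 0.1. Its unadjusted p ranked 339th among the 20021 genes. The adjusted p was 0.0367 with DESeq2 and 0.0221 by edgeR when every gene with at least 1 read was tested, and in both fits the fold change was under the minimum of 0.5 in size. Over all 14 alternatives it ran from 0.0221 to 0.522. Without OIR-Norm replicate 2 the log2 fold change of Pdgfra was -0.28 (adjusted p = 0.447 by edgeR). In bulk retina, fewer cells of a type and less RNA per cell cannot be told apart.

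Pdgfra is also made by fibroblasts and by oligodendrocyte precursors. All 8 fibroblast markers had a negative log2 fold change, with a median of -0.63 (-0.43 without OIR-Norm replicate 2) against 0.00 over all genes tested. Of them 0 were called by edgeR, and 5 had an unadjusted p under 0.05, against 7.01% of all genes lower at that p. DESeq2 called 3 of the 8, Fbln2, Ogn and Col1a2, all lower, against 0.642% called lower of the 15735 genes to which it gave an adjusted p, and both limma tests called 0. Their summed level was 29.8 to 39.6 CPM in OIR-CIH and 39.2 to 67.5 CPM in OIR-Norm, again highest in OIR-Norm replicate 2. The matrix gene Fbln2 had 7.29 CPM in OIR-CIH and 11.3 CPM in OIR-Norm (log2 fold change -0.63, adjusted p = 0.178 by edgeR), the proteoglycan Ogn 9.71 and 15.0 CPM, and the collagen gene Col1a2 10.8 and 16.2 CPM. Oligodendrocyte lineage markers had levels that overlapped between groups. The 8 that could be tested had a median of 0.05 (0.30 without OIR-Norm replicate 3). With the rest of the list they summed to 71.5 to 76.9 CPM in OIR-CIH and 67.4 to 73.9 CPM in OIR-Norm. Most of each sum came from the myelin genes Mbp (28.7 CPM in OIR-CIH, 27.5 CPM in OIR-Norm) and Cnp (33.1 and 32.3 CPM). Olig1 was scarce, at 0.182 and 0.235 CPM, and Olig2, which defines the lineage, had a single read in all libraries. The sum therefore says little about precursors. No marker of either list was at 0 in every library, and the part of these cells in the Pdgfra difference was not tested.

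Pdgfrb (ENSMUSG00000024620, chr18:61045150-61085061, plus strand) encodes the receptor of pericytes and other mural cells. It was read at 12, 13.3 and 15.0 CPM in OIR-CIH and at 14.3, 18.5 and 10.5 CPM in OIR-Norm. The OIR-Norm libraries held both the highest and the lowest value. The log2 fold change was -0.10 (standard error 0.17, 95% interval -0.48 to 0.28, adjusted p = 0.85 by edgeR, exact permutation p = 0.8), and it was 0.12 without OIR-Norm replicate 2. Pdgfrb and Pdgfb followed the same order over the OIR-Norm libraries, with replicate 2 highest and replicate 3 lowest.

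Several mural and endothelial markers, such as Rgs5, Abcc9, Cdh5 and Esam, had this order too. The 12 mural markers had a median log2 fold change of -0.43, and 11 were negative, but 0 were called by edgeR. Of them 3 had an unadjusted edgeR p under 0.05, all lower, against 7.01% of all genes lower at that p. DESeq2 called 1, Myh11, which was lower, against 0.642% called lower of the genes to which it gave an adjusted p. Without OIR-Norm replicate 2 the mural median was -0.01. Rgs5, a pericyte gene, was at 57.0, 73.6 and 96.5 CPM in OIR-CIH and at 107, 166 and 72.5 CPM in OIR-Norm. Myh11, the smooth muscle myosin, was at 1.57, 1.66 and 1.91 CPM in OIR-CIH and at 5.06, 5.09 and 1.48 CPM in OIR-Norm. Its groups overlapped through OIR-Norm replicate 3, the lowest library, and the means were 1.71 and 3.88 CPM. The potassium channel subunit gene Abcc9 had means of 2.81 and 5.52 CPM. With OIR-Norm replicate 2 left out, the log2 fold change of Rgs5 went from -0.61 to -0.25 and that of Abcc9 from -0.95 to -0.19, while Myh11 went from -1.16 to -0.92. Summed mural levels were 624 to 702 CPM in OIR-CIH and 616 to 772 CPM in OIR-Norm, but Vtn alone made up 482 to 626 CPM of each sum. The other 11 markers summed to 82.3, 96.5 and 128 CPM in OIR-CIH and to 146, 228 and 90.2 CPM in OIR-Norm, so that the groups overlapped and OIR-Norm replicate 2 was highest.

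For the 12 endothelial markers the median was -0.23, and it was 0.12 without OIR-Norm replicate 2. None was called by edgeR, and 1 had an unadjusted p under 0.05, against 7.01% of all genes lower at that p. It was the VEGF receptor gene Flt1, at 64.2 CPM in OIR-CIH and 75.7 CPM in OIR-Norm (log2 fold change -0.24, adjusted p = 0.331 by edgeR, and -0.13 without OIR-Norm replicate 2). Esam, a junction protein gene, had 10.0 and 12.7 CPM, with a log2 fold change of -0.34 that was -0.14 without that library. Summed endothelial levels were 288 to 330 CPM in OIR-CIH and 291 to 379 CPM in OIR-Norm, but Kdr alone made up 165 to 179 CPM of each sum (log2 fold change -0.01). Taken singly, each of the 12 endothelial markers also overlapped between groups, as Pdgfb and Pdgfrb did.

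**Figure D2:**
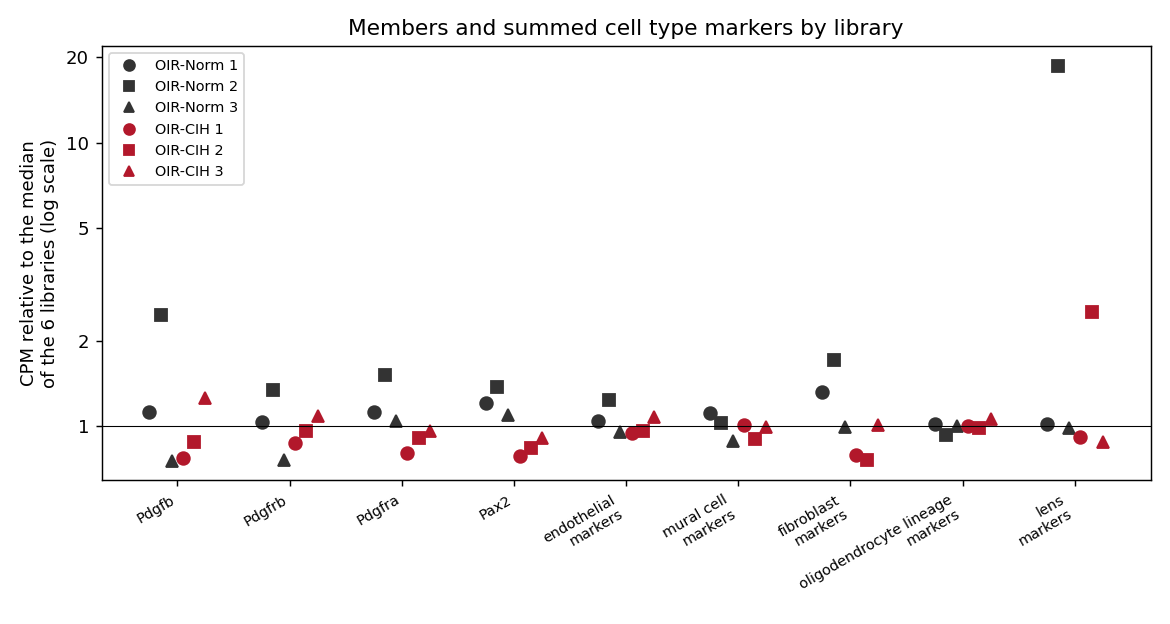
Levels of 4 members and summed levels of 5 marker lists in each library, as a ratio to the median of the 6 libraries (vertical axis, log scale). Black points are OIR-Norm, red points OIR-CIH, and symbols mark the replicate. OIR-Norm replicate 2 (black square) is highest for Pdgfb, Pdgfrb, Pdgfra, Pax2, endothelial, fibroblast and lens markers, the last at 389 CPM. The mural sum is mostly Vtn. The oligodendrocyte lineage sum, mostly Mbp and Cnp, stays near 1 in every library.

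The astrocyte regulators went in opposite directions, and neither was called. Pax2 (ENSMUSG00000004231, chr19:44756045-44837871, plus strand) was the least abundant of the 8 genes, with 28 to 55 reads per library. It was read at 1.10, 1.18 and 1.27 CPM in OIR-CIH and at 1.69, 1.93 and 1.54 CPM in OIR-Norm. The groups were separate, with means of 1.18 ± 0.0858 and 1.72 ± 0.197 CPM (SD, n = 3 each). At so few reads an SD of 3 libraries is itself uncertain, and the gap should not be judged by it. The log2 fold change was -0.53 (standard error 0.22, 95% interval -1.01 to -0.05), with p = 0.0331 by edgeR before and p = 0.344 after adjustment, and the exact permutation p was 0.1. Over the 14 alternatives the adjusted p of Pax2 by edgeR, DESeq2 or limma ran from 0.31 to 0.647. Without OIR-Norm replicate 2 the log2 fold change of Pax2 was -0.44, with an unadjusted p of 0.113 and an adjusted p of 0.647 by edgeR.

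Nr2e1 (ENSMUSG00000019803, chr10:42561963-42583632, minus strand) was read at 22.2, 19.6 and 20.8 CPM in OIR-CIH and at 20.2, 17.4 and 18.1 CPM in OIR-Norm. The groups overlapped through one library on each side. Means were 20.9 ± 1.33 CPM (SD, n = 3) and 18.5 ± 1.47 CPM (SD, n = 3), and the log2 fold change was 0.17 (standard error 0.10, 95% interval -0.05 to 0.39, adjusted p = 0.501 by edgeR, exact permutation p = 0.2). Its sign was positive in all 14 alternatives. Müller glia also make Nr2e1. Their 10 markers had a median log2 fold change of 0.06 and summed to 4550 to 5560 CPM in OIR-CIH and 4530 to 5150 CPM in OIR-Norm. None was called by edgeR. The 2 with an unadjusted edgeR p under 0.05 were higher in OIR-CIH, against 6.2% of all genes higher at that p. They were Car14, a carbonic anhydrase gene (108 against 82.1 CPM, adjusted p = 0.0989 by edgeR), and Rlbp1, the retinaldehyde-binding protein gene (519 against 410 CPM, adjusted p = 0.164 by edgeR).

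**Figure D3:**
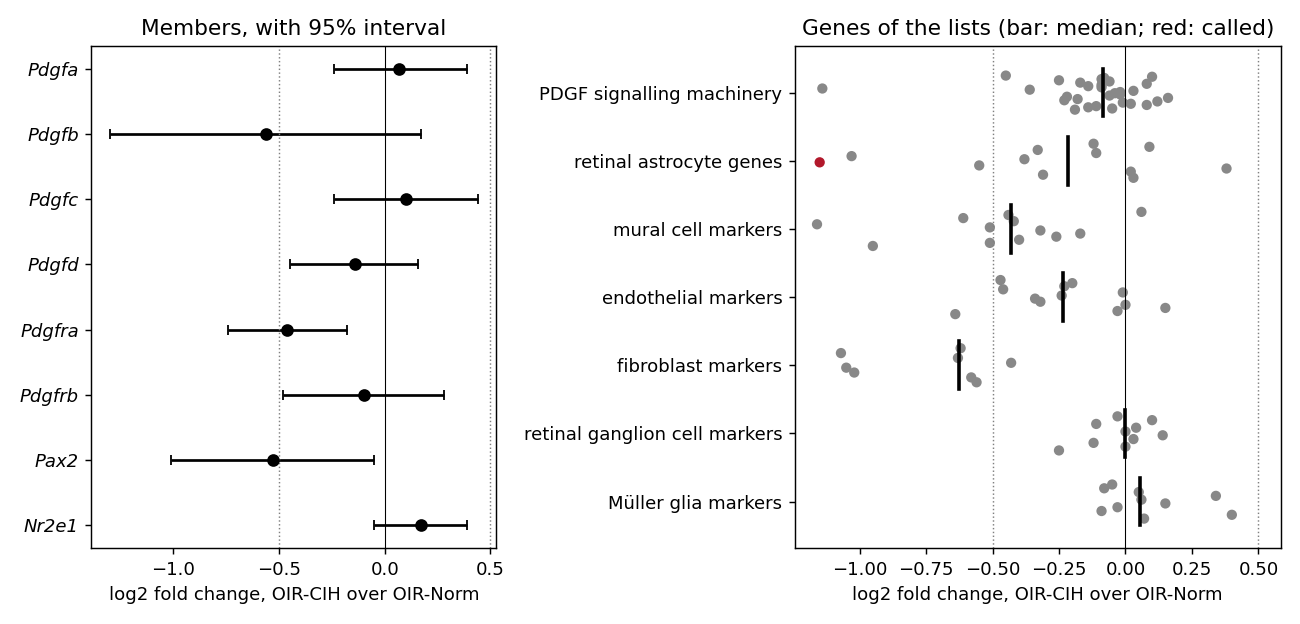
Log2 fold change of OIR-CIH over OIR-Norm (horizontal axis). The left panel gives each member with its 95% interval, and the right panel each tested gene of 7 lists as a point, with a bar at the median and called genes in red; dotted lines mark the minimum of 0.5 in either direction. Only the intervals of Pdgfra and Pax2 lie entirely below 0, and Gfap, at -1.15, is the one called gene.

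Of 12 genes that retinal astrocytes are known to use, 1 was called, and it was lower in OIR-CIH. Gfap, the intermediate filament gene of astrocytes and of reactive Müller glia, was at 61.5, 62.5 and 67.5 CPM in OIR-CIH and at 158, 147 and 119 CPM in OIR-Norm. Every OIR-CIH library was well below every OIR-Norm library. The log2 fold change came to -1.15, with a standard error of 0.10 (adjusted p = 0.000107 by edgeR), and it was called in all 14 alternatives. Among all genes, 0.215% were called lower. The median of the list was -0.22, with 8 of 12 genes negative. At an unadjusted edgeR p under 0.05, 5 were lower, against 7.01% of all genes. The lipid-binding protein gene Fabp7 was the 1 gene higher at that p, against 6.2% of all genes. The list median was -0.14 without OIR-Norm replicate 2. The OIR-CIH libraries lay entirely below the OIR-Norm libraries for 3 of the 12 genes and entirely above for 1. Of all genes tested, 18.4% were separate in either direction.

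Nes, the intermediate filament gene nestin of immature and reactive glia, had 23.3 ± 1.94 CPM in OIR-CIH and 47.5 ± 20.6 CPM in OIR-Norm (SD, n = 3 each), and its groups were separate. Its fitted log2 fold change, -1.03, missed the threshold (adjusted p = 0.0943 by edgeR), and it was -0.63 without OIR-Norm replicate 2. Nes passed both thresholds by edgeR with the replicate number as a block (adjusted p = 0.0363), without OIR-Norm replicate 3 (0.0052) and when every gene with at least 1 read was tested (0.000116). No other alternative called Nes. Its adjusted p was 0.141 with DESeq2, 0.158 with limma-voom and 0.4 by edgeR without OIR-CIH replicate 1. The water channel gene Aqp4 was at 76.0 against 94.2 CPM (log2 fold change -0.31, adjusted p = 0.103 by edgeR), and its groups were separate. The adjusted p of Aqp4 was 0.022 with DESeq2 and 0.0369 by edgeR when every gene with at least 1 read was tested. In both fits its fold change was under the minimum of 0.5 in size. The matrix gene Fn1 was at 116 against 171 CPM and the urea transporter gene Slc14a1 at 29.9 against 37.7 CPM. With OIR-Norm replicate 2 left out, the log2 fold change of Fn1 went from -0.55 to -0.28 and that of Slc14a1 from -0.33 to -0.19. The summed list was 750 to 831 CPM in OIR-CIH and 831 to 1130 CPM in OIR-Norm. Müller glia use several of these genes, so a bulk level does not belong to astrocytes alone.

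The 30 genes that process PDGF ligands or carry the receptor signal gave 0 calls by edgeR. Their median log2 fold change was -0.08, and 23 of 30 were negative against 50.5% of all genes tested. An unadjusted edgeR p under 0.05 was found for 4 of the 30, all lower. Of all genes, 7.01% were lower at that p, and 13.2% had such a p in either direction. Plat, the tissue plasminogen activator gene whose product activates PDGF-C, was at 24.9, 25.3 and 28.4 CPM in OIR-CIH and at 31.7, 42.4 and 27.1 CPM in OIR-Norm. The fitted log2 fold change of Plat was -0.36 (standard error 0.14, adjusted p = 0.309 by edgeR), and its groups overlapped through OIR-Norm replicate 3. Leaving out OIR-Norm replicate 2 gave Plat a log2 fold change of -0.16, with an unadjusted p of 0.139 and an adjusted p of 0.676 by edgeR. Plau, the urokinase gene whose product activates PDGF-D, was scarce, at 0.118 to 0.476 CPM in OIR-CIH and 0.346 to 1.09 CPM in OIR-Norm (log2 fold change -1.14, standard error 0.51, adjusted p = 0.363 by edgeR). Lrp1, a co-receptor of PDGF receptor beta, had 160 and 188 CPM (adjusted p = 0.37 by edgeR), and Cbl, a ubiquitin ligase that ends receptor signalling, 54.3 and 62.0 CPM (adjusted p = 0.367 by edgeR). The adaptors, kinases and phosphatases that carry the receptor signal held none beyond Cbl at that p, and the summed machinery list was 2560 to 2730 CPM in OIR-CIH and 2600 to 2840 CPM in OIR-Norm.

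Retinal ganglion cells, the source of PDGF-A for astrocytes, were followed by 10 markers with a median log2 fold change of 0.00. None was called by edgeR, and 1 had an unadjusted p under 0.05, against 7.01% of all genes lower at that p. It was the neurofilament gene Nefh (92.7 CPM in OIR-CIH, 110.0 CPM in OIR-Norm, adjusted p = 0.285 by edgeR). The following summed level is that of all 10 markers. Their summed level was 943 to 1200 CPM in OIR-CIH and 1060 to 1160 CPM in OIR-Norm, and DESeq2 and both limma tests called 0 of them, as they did for the endothelial, Müller glia and machinery lists. Median log2 fold changes were -0.27 for 8 microglia markers, -0.05 for 7 blood markers, 0.14 for 8 pigment epithelium markers, 0.18 for 8 rod markers and -2.13 for the 7 lens markers, with 0 genes of these lists called by edgeR. DESeq2 called the microglial receptor gene Cx3cr1 and the rod factor gene Nr2e3, and limma-voom called Nr2e3. Leaving out OIR-Norm replicate 2 gave medians of 0.09 for blood, 0.09 for rod and 0.23 for lens markers, and without OIR-Norm replicate 1 it was 0.37 for pigment epithelium markers. Unadjusted edgeR p under 0.05 were found for 3 microglia, 2 blood and 5 lens markers, all lower in OIR-CIH, and for 2 rod markers, both higher. Of all genes, 7.01% were lower and 6.2% higher at that p. Of the pigment epithelium markers 4 were higher at that p, with log2 fold changes from 0.52 for Rdh5 to 0.80 for Lrat, and 1 was lower, Pmel at -0.78.

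Levels were compared between genes only as CPM per kilobase of merged exons. In OIR-CIH the order was Nr2e1 (5.63 ± 0.359), Pdgfa (3.14 ± 0.567), Pdgfra (3.04 ± 0.265), Pdgfrb (2.45 ± 0.278), Pdgfd (2.06 ± 0.162), Pdgfb (1.16 ± 0.302), Pdgfc (1.01 ± 0.0585) and Pax2 (0.219 ± 0.0159 CPM per kilobase, SD, n = 3 each). Pdgfa and Pdgfra, Pdgfrb and Pdgfd, and Pdgfb and Pdgfc overlapped there between libraries. In OIR-Norm the level of Pdgfra, 4.19 ± 0.871 CPM per kilobase (SD, n = 3), was above that of Pdgfa, 3.00 ± 0.209 (SD, n = 3), with no overlap between their libraries, and it overlapped with Nr2e1 at 5.00 ± 0.396 (SD, n = 3). Below these, Pdgfrb at 2.63, Pdgfd at 2.28 and Pdgfb at 1.74 CPM per kilobase overlapped each with the next, and so did Pdgfa with Pdgfrb and Pdgfb with Pdgfc at 0.939. Pax2 was last in both groups, at 0.318 CPM per kilobase in OIR-Norm. The order depends on which exons count as length. With the mean transcript length in its place, Pdgfb stood above Pdgfd and Pdgfrb in both groups. Pdgfra then came before Pdgfa in OIR-CIH, at 11.1 against 8.89 CPM per kilobase, and before Nr2e1 in OIR-Norm, at 15.3 against 14.3, while Pax2 was last in both groups.

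**Figure D4:**
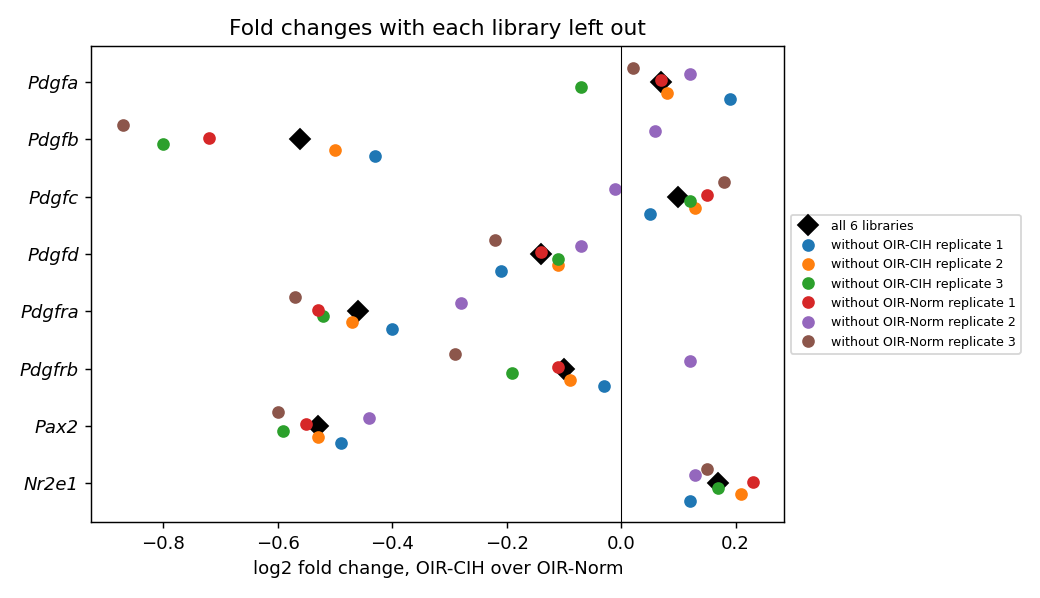
Log2 fold change of OIR-CIH over OIR-Norm (horizontal axis) of each member with all 6 libraries (black diamonds) and with each library left out in turn (coloured points). Without OIR-Norm replicate 2 (purple) Pdgfra moves from -0.46 to -0.28 and Pdgfb, Pdgfc and Pdgfrb cross 0, while all points of Pdgfra, Pax2 and Pdgfd stay below 0 and all of Nr2e1 above.

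The genes whose levels went most closely with the 3 members of lowest p were sought over the 6 libraries among 14800 genes with a mean of at least 1 CPM, as Pearson's r of log2(CPM + 0.5). The libraries are the same for every pair, 2 groups of 3, so that r is a description. For Pdgfra they were Vcl (r = 0.999), which encodes the adhesion protein vinculin, Akap12 (r = 0.999), a scaffold for protein kinase A, and Slc40a1 (r = 0.995), the iron exporter ferroportin, and 99 genes had an r over 0.95. For Pax2 they were Helz2 (r = 0.998), Nectin3 (r = 0.994), a cell adhesion gene, and Supt6 (r = 0.991), a transcription elongation factor gene, and 113 genes passed 0.95. For Nr2e1 they were Ndrg3 (r = 0.997), Npl (r = 0.995) and Slc25a17 (r = 0.994), and 202 genes passed that mark.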

How the data were processed

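Bulk RNA of 3 OIR-CIH and 3 OIR-Norm retinal libraries was sequenced after poly(A) selection with a stranded kit. The authors aligned reads with STAR 2.7.9a and deposited the raw counts of reads per gene as 1 table, not normalized. The methods name Ensembl 105 and the submitters' processing notes GRCm38, and the strand column kept is not given in the sources used here. Symbols and coordinates come from GENCODE M21 (GRCm38) through the gene identifier, for 32158 of 32285 genes, and only describe the genes.

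Counts were TMM-scaled (trimmed mean of M-values), filtered at a total of at least 10 as in the study, and tested with edgeR 4.0.16 (quasi-likelihood, R 4.3.3) with Benjamini-Hochberg adjustment over 20021 genes. A call needed both thresholds of the study, 0.05 for the adjusted p and 0.5 for the size of the log2 fold change. The study applied them to a DESeq fit, and the main calls here apply them to edgeR. DESeq2 1.42.0, limma 3.58.1, other filters and scaling, a replicate block, no minimum fold and leaving out each library were the alternatives. The fit was tested on simulated counts.

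All 8 members are named, with, from each list, the genes called and otherwise up to 4 (signalling machinery, astrocyte genes) or 3 of lowest p. Xist, Ddx3y, Olig1, Olig2, Mbp, Cnp, Fabp7, Vtn, Kdr, Rdh5 and Pmel fall outside that count and were added after values were seen. Members and lists were chosen with earlier results of these data known. Replicates of a group differed beyond counting noise (chi-square per degree of freedom 11.47 to 23.41) and were all kept. Nothing in the labels says that libraries came from separate animals, so p-values measure the spread between libraries.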

Additional observations from a re-analysis of the deposited data

How the results depend on the processing

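None of the 8 members was called in any alternative. Of 112 alternatives to their fold changes, 108 kept the sign, and 4 reversed it, each in a fit without 1 library: leaving out each library in turn gave -0.07 to 0.19 for Pdgfa, -0.87 to 0.06 for Pdgfb, -0.01 to 0.18 for Pdgfc and -0.29 to 0.12 for Pdgfrb. Of 182 alternatives to the list medians, 179 moved by less than the spread between libraries. That spread is wide where OIR-Norm replicate 2 stands apart. Without this library the mural median went from -0.43 to -0.01 and the endothelial median from -0.23 to 0.12, and both are among the 179. The number of genes called was 63, and it was 213 with a minimum of 1 count, 135 with DESeq2 and, with 1 library left out, from 35 (OIR-CIH replicate 1) to 104 (OIR-Norm replicate 3); the cause was not tested. A replicate block gave 84 calls, which included 60 of the 63. Deviations of same-numbered libraries had correlations of 0.104, 0.0989 and -0.181. The labels do not say whether same-numbered libraries were paired, and so few values cannot settle it. With the mean transcript length as divisor, mean levels over the 6 libraries, which pool the groups, were 8.69 CPM per kilobase for Pdgfa, 3.92 for Pdgfb, 1.68 for Pdgfc, 2.64 for Pdgfd, 13.2 for Pdgfra, 2.57 for Pdgfrb, 0.47 for Pax2 and 15.2 for Nr2e1, and the order of Pdgfra and Nr2e1 differed between the groups. Pax2, with 28 to 55 reads per library, is where depth limits most, and 3 libraries per group limit every member.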
